A study of Homo sapiens with 16 samples.

Results

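The genes described here are 43 named components of the human kinetochore, the spindle assembly checkpoint and the kinases that drive mitosis. They were chosen by symbol from the gene table of an RNA sequencing series of 63677 identifiers. No measured value entered the rule, but earlier results of these data were known when the set was chosen. All 43 had counts and passed the filter on low counts in both cell lines, although SPC25 and SKA1 each carry a second identifier without reads. The series compares MiaPaCa2 and PANC1, established cell lines from human pancreatic cancers, in 16 libraries. Each line was kept as a control or given 40 nM gemcitabine, 50 µM genistein or both drugs together (co-treatment) for 24 hours, with 2 biological replicates (I and II) in each of the 4 groups. Gemcitabine is a nucleoside analogue that blocks DNA replication, and genistein is a plant isoflavone. Whether the controls received vehicle is not given in the labels. Each line stands for a single tumour, so differences between the lines are differences between these 2 cultures. The question addressed is which parts of the mitotic machinery changed in transcript level with each drug, and whether both lines changed alike.

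The kinetochore is the protein assembly on centromeric chromatin that holds spindle microtubules. Its inner layer is built on nucleosomes with the histone variant CENPA, and its outer layer, with the NDC80 complex at its centre, binds the microtubule. While any kinetochore is unattached, the spindle checkpoint proteins MAD1L1, MAD2L1, BUB1, BUB1B, BUB3 and TTK keep CDC20 from activating the anaphase-promoting complex. Many of these genes are transcribed in waves late in the cell cycle, through CHR and CCAAT elements in their promoters bound by the DREAM and MuvB complexes, FOXM1 and NF-Y. In bulk RNA, fewer cells in G2 and mitosis and less RNA per cell cannot be told apart.

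Levels are given as normalised CPM, the reads of a gene scaled to library depth after TMM normalisation within a line, which are not comparable between lines, with replicate I before replicate II. Counted reads ran from 12943482 to 31991860 per library. Differences are log2 fold changes ± SE from limma-voom on the 8 libraries of a line, and adjusted p is by the Benjamini-Hochberg method over all 16064 genes tested in MiaPaCa2 or 16909 in PANC1. A gene is called where adjusted p is at most 0.05, the absolute log2 fold change is at least 0.4 and the mean FPKM (reads scaled to transcript length and depth, used to compare genes and lines) of the treated group is above 1. Where members at an unadjusted p under 0.05 are counted, the share of all genes at that threshold was not computed. Such counts are therefore no sign of a change in these genes. The spread between the replicates of a group exceeded counting noise, most of all for the PANC1 controls (chi-square of 32.03 per degree of freedom) and least for PANC1 with genistein (2.70). A trend with GC content also set the libraries apart. Over an increase of 10 GC points, log2 CPM relative to the line's mean shifted by -0.23 and -0.14 for MiaPaCa2 controls and by 0.14 and 0.05 for MiaPaCa2 with gemcitabine. The MiaPaCa2 co-treatment libraries shifted by 0.05 and 0.29. For PANC1 the shifts were 0.29 and -0.07 for controls and -0.16 and 0.23 for co-treatment. The exons of the 43 genes are AT-rich, with a median GC content of 42.0% against 46.5% for all identifiers, and range from 34.0% (CENPQ) to 61.0% (MAD1L1). Values after removal of each library's GC trend are therefore given beside many of the results. In MiaPaCa2 the trend differed between control and gemcitabine libraries, so its removal may also take out a drug response that follows GC content. The correction cannot tell such a response from a trend of the libraries. KRT8, KRT18 and VIM were at 369 FPKM or more in all 16 libraries, and PTPRC, CD3E, PECAM1 and VWF had at most 4 reads. EPCAM had 0 reads in all 8 MiaPaCa2 libraries and the endothelial gene CDH5 had at least 21, against 0 or 1 in PANC1.

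The promoter sequences of the genes called in both lines with gemcitabine are shown because CHR and CCAAT elements are known from this gene class. They are RefSeq sequences of the build GRCh38.p14, the 250 bases before the annotated start, 5′ to 3′ on the gene's strand, and 35 of the 43 genes were found in the table, AURKA not among them. Capitals mark a CHR element (TTTGAA or TTCGAA, either strand) or a CCAAT box (CCAAT, either strand). CDC20 (chr1:43358731-43358980, + strand), PLK1 (chr16:23678639-23678888, + strand), CDCA8 (chr1:37692266-37692515, + strand) and CENPA (chr2:26785806-26786055, + strand) fell in both lines. ZWINT (chr10:56361260-56361509, - strand) and DSN1 (chr20:36773764-36774013, - strand) rose in both.
CDC20: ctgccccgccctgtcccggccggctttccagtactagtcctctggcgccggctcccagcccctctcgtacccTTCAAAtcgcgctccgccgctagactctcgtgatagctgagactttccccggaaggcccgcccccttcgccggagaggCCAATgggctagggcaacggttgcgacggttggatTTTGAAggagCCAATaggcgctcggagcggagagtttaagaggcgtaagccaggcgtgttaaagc
PLK1: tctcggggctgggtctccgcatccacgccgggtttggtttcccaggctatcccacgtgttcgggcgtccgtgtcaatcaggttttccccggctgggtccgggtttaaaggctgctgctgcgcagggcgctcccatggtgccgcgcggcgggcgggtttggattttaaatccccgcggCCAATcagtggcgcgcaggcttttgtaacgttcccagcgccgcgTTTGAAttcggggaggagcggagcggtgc
CDCA8: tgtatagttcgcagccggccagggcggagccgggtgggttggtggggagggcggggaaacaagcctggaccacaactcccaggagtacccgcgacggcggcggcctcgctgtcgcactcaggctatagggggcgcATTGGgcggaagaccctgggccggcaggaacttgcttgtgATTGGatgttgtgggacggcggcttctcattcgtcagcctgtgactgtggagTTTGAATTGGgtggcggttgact
CENPA: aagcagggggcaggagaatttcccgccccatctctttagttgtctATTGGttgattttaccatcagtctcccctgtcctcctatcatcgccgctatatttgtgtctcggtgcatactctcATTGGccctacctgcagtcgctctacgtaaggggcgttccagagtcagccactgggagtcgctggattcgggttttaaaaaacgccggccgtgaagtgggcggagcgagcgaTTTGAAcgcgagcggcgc
ZWINT: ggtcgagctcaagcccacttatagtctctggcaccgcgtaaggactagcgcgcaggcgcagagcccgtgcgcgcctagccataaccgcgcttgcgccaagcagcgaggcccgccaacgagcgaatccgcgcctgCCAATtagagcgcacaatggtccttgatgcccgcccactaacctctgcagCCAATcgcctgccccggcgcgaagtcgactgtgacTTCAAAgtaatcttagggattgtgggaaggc
DSN1: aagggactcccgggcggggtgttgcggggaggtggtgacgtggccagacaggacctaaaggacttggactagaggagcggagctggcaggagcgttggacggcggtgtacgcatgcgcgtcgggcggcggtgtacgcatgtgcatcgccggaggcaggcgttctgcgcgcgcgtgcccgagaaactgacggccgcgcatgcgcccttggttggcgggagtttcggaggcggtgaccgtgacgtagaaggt
Each of the 4 genes that fell has at least 1 CHR element and 1 CCAAT box in this window, ZWINT also has both, and DSN1 has neither. In CDCA8 a CHR element and an inverted CCAAT box share a base. Over the whole 300-base window of the table, which adds the 50 bases after the start, 21 of the 35 genes (60.0%) held a CHR element, against 16.4% of 35116 human promoters. A CCAAT box was in 23 of 35 (65.7%) against 34.6%, and both were in 15 (42.9%) against 6.4%. In the 250 bases before the start alone, the CHR counts were 10 of 35 (28.6%) against 14.3%. A CCAAT box was there in 21 of 35 (60.0%) against 32.0%, and both were in 9 (25.7%) against 5.1%. Over the 300-base window, a CHR element was in 9 of the 12 called lower with gemcitabine in MiaPaCa2, in 1 of the 3 called higher and in 11 of the 20 not called. In PANC1 it was in 4 of 4 lower, 3 of 4 higher and 14 of 27 not called. In the 250 bases before the start these were 5 of 12 lower, 1 of 3 higher and 4 of 20 not called in MiaPaCa2, and 4 of 4, 1 of 4 and 5 of 27 in PANC1. Over 300 bases, a CCAAT box was in 8 of 12 lower, 2 of 3 higher and 13 of 20 not called in MiaPaCa2. For PANC1 the CCAAT counts were 4 of 4, 1 of 4 and 18 of 27. A match is a description of letters in the window and not evidence of binding.

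In untreated cells all 43 genes were above 1 FPKM in every control library. CDC20, the activator of the anaphase-promoting complex that the checkpoint restrains, was highest per length in both lines, with 457 and 443 FPKM in MiaPaCa2 and 375 and 309 in PANC1. CENPP, a subunit of the inner kinetochore, had the lowest mean, with 1.72 and 1.76 FPKM in MiaPaCa2 and 1.37 and 1.54 in PANC1. CENPC was below it in 1 PANC1 library, at 1.11 FPKM, and its lower MiaPaCa2 value was 1.76 FPKM. Between the untreated lines, 10 of the 43 genes were called higher in PANC1 and 7 lower, while 27.9% and 24.3% of all 17863 genes tested were called higher and lower. The spindle assembly factor TPX2 was higher in PANC1 by 0.75 ± 0.06 (adjusted p = 2.46e-07) and the inner kinetochore gene CENPM by 1.15 ± 0.22 (adjusted p = 0.000438). CENPH, CENPO, CENPW, DSN1, ZWINT, BUB3, BIRC5 and SGOL1 were the other 8 called higher. NUF2 and NDC80, subunits of the NDC80 complex, were lower in PANC1, with log2 differences of -1.33 ± 0.22 for NUF2 (adjusted p = 0.000155) and -0.76 ± 0.19 for NDC80 (adjusted p = 0.00272). SKA1, SKA3, CENPQ, AURKB and NEK2 were the other 5 called lower, SKA1 not after GC correction (-0.32). Of the 9 outer kinetochore genes, 4 were thus lower in PANC1 (NDC80, NUF2, SKA1 and SKA3) and 2 higher (DSN1 and ZWINT). The other subunits of the NDC80 complex, SPC24 and SPC25, had log2 differences of -0.16 ± 0.12 and -0.39 ± 0.13 and were not called. The untreated levels are plotted gene by gene.

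**Figure D1:**
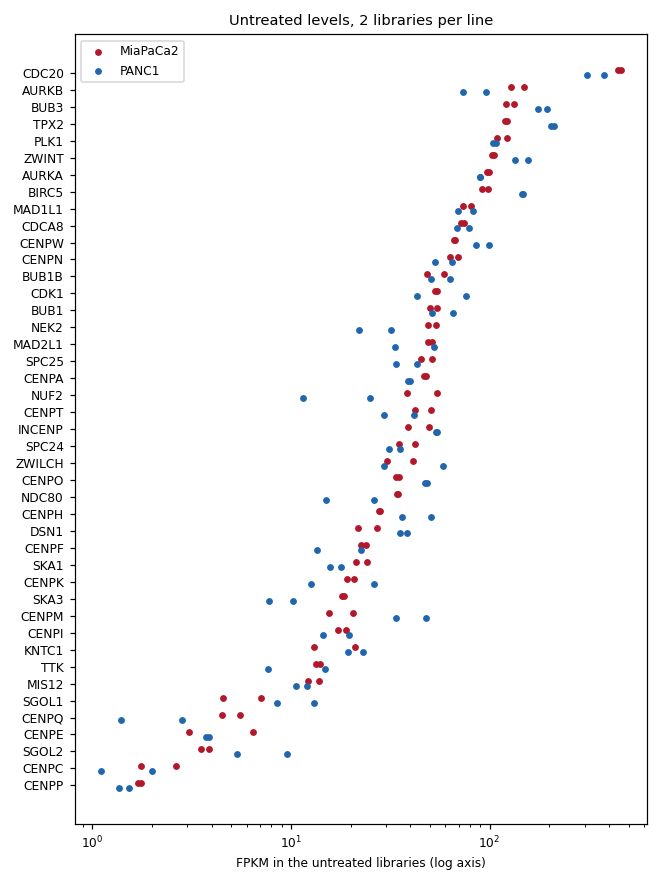
FPKM of the 43 genes on a log axis in the untreated libraries, ordered by the mean in MiaPaCa2, with 1 point per library (red MiaPaCa2, blue PANC1). CDC20 stands highest, CENPP and CENPC lie lowest, and NUF2, NEK2 and SKA3 lie lower in both PANC1 libraries than in either MiaPaCa2 library.

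Gemcitabine lowered 15 of the 43 genes and raised 4 in MiaPaCa2, against 14.6% and 15% of all genes tested. In PANC1 it lowered 5 and raised 4, against 3.03% and 4.49% of all genes. The 5 that fell in PANC1 (CDC20, PLK1, AURKA, CDCA8 and CENPA) all fell in MiaPaCa2 too, and 2 genes rose in both lines (DSN1 and ZWINT). None of the 43 was called in opposite directions. Over all genes, calls shared by both lines were not counted, here or for the comparisons below. The median log2 fold change of the 43 genes was -0.17 in MiaPaCa2 and 0.23 in PANC1, beside -0.01 and 0.03 over all genes tested. After GC correction the medians were 0.04 and 0.08, so the MiaPaCa2 median changed sign, and the counts became 7 higher and 13 lower in MiaPaCa2 and 12 higher and 8 lower in PANC1. Of all genes, 27.2% were then called in either direction in MiaPaCa2, against 29.6% before, and 17.9% in PANC1, against 7.52%. The genes called in MiaPaCa2 only after the correction were CDK1 (0.65), SPC25 (0.48), CENPH (0.44) and SKA3 (0.43), all higher, and MAD1L1 (-0.64), lower. In PANC1 they were CENPQ (0.84), CENPM (0.73), CENPK (0.58), SGOL1 (0.56), MIS12, CENPP, SPC24 and CENPO, all higher, and CENPE (-0.64), BUB1 (-0.53) and CENPF (-0.42), lower. The calls by role that follow are those without the correction. With library size alone in place of TMM the PANC1 split was 7 higher and 4 lower, and the median of all genes there moved from 0.03 to 0.14. The PANC1 calls depend on both gemcitabine libraries. With either left out no member was called, edgeR and DESeq2 were not run on that subset, 14 or 15 members had an unadjusted p under 0.05, and 66 or 64 genes of the whole table were called. The log2 fold changes of the 9 called genes kept their sign there, for example -1.42 to -1.08 for PLK1 over the 8 libraries left out in turn.

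**Figure D2:**
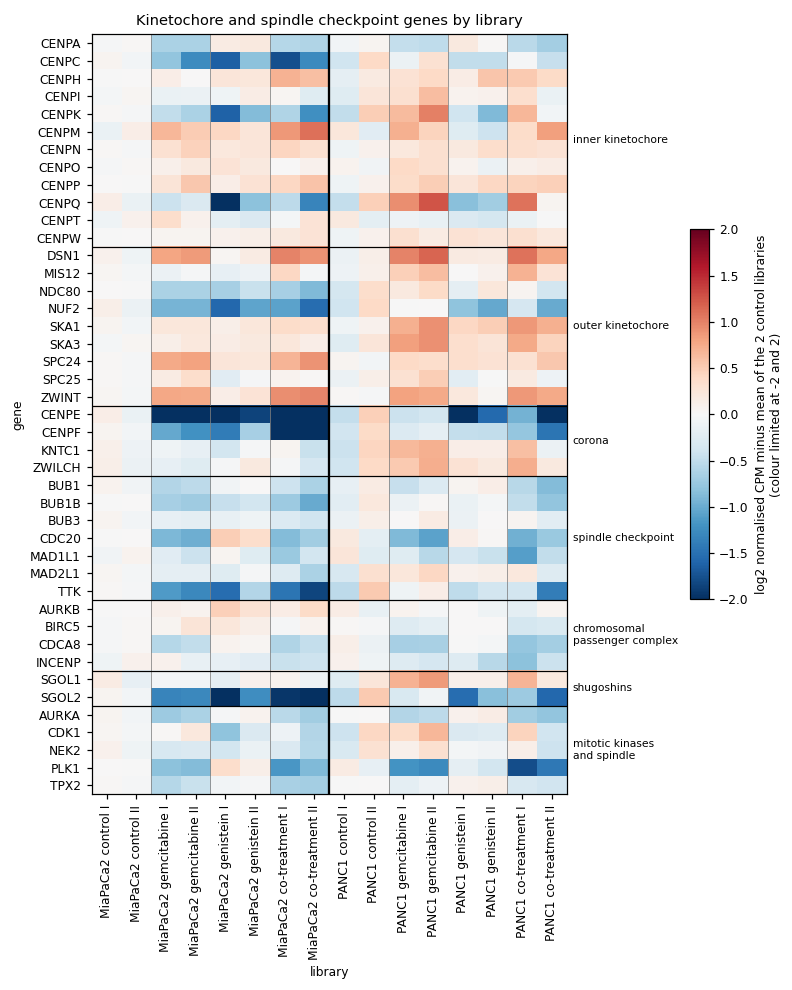
Log2 normalised CPM of the 43 genes (rows, grouped by role) in the 16 libraries (columns), each minus the mean of the 2 control libraries of its line, with colours limited at -2 and 2. DSN1 and ZWINT are red and CDC20, PLK1, AURKA and CDCA8 blue in all gemcitabine and co-treatment libraries of both lines, while the PANC1 control libraries differ from each other over many rows.

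**Figure D3:**
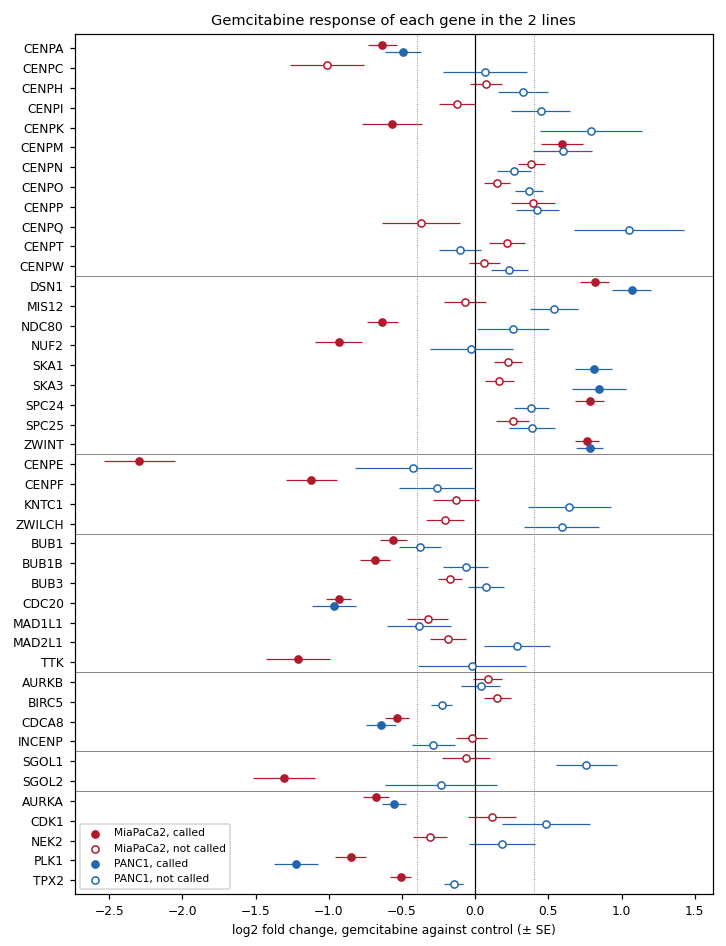
Log2 fold change ± SE with gemcitabine against control for each gene, red for MiaPaCa2 and blue for PANC1, with filled points for called genes and dotted lines at -0.4 and 0.4. PLK1, CDC20, CDCA8, AURKA and CENPA lie left of zero in both lines, DSN1 and ZWINT lie right of it, and the lines are farthest apart for CENPE.

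Among the checkpoint genes, gemcitabine lowered 4 of 7 in MiaPaCa2 (TTK, CDC20, BUB1B and BUB1) and 1 of 7 in PANC1 (CDC20). CDC20 in MiaPaCa2 read 429 and 434 in the controls, 233 and 219 with gemcitabine, 609 and 550.2 with genistein and 236 and 267 with co-treatment. The PANC1 libraries gave 399 and 304 in the controls, 188 and 166 with gemcitabine, 381 and 354 with genistein and 179 and 208 with co-treatment. Both gemcitabine libraries and both co-treatment libraries lay below every control and genistein library in each line. The change with gemcitabine was -0.93 ± 0.09 in MiaPaCa2 (adjusted p = 1.16e-05) and -0.96 ± 0.15 in PANC1 (adjusted p = 0.0111), and -1.14 and -0.83 after GC correction. TTK, the MPS1 kinase that starts checkpoint signalling, read 34.2 and 33.0 in the controls, 15.3 and 13.8 with gemcitabine, 11.7 and 22.3 with genistein and 12.2 and 9.37 with co-treatment in MiaPaCa2. Its PANC1 values were 20.2 and 41.5 in the controls, 27.2 and 31.6 with gemcitabine, 20.4 and 22.5 with genistein and 22.5 and 11.1 with co-treatment. The MiaPaCa2 controls lay above all 6 treated libraries, while the PANC1 gemcitabine values lay between the 2 controls. TTK changed by -1.21 ± 0.22 in MiaPaCa2 (adjusted p = 0.001), -0.95 after GC correction, and by -0.02 ± 0.37 in PANC1 (adjusted p = 0.98). MAD1L1, which carries MAD2L1 to unattached kinetochores, read 51.5 and 56.4 in the controls, 46.0 and 40.2 with gemcitabine, 56.2 and 45.4 with genistein and 32.1 and 41.9 with co-treatment in MiaPaCa2. PANC1 had 82.5 and 59.4 in the controls, 59.1 and 47.5 with gemcitabine, 55.7 and 51.4 with genistein and 32.8 and 49.6 with co-treatment. Its gemcitabine changes of -0.32 ± 0.14 and -0.38 ± 0.22 passed the test in neither line. In GENCODE v44, not known to be the counting annotation, another gene of the same strand shares 43.2% of the MAD1L1 exon bases. BUB1, the kinase that recruits other checkpoint proteins, and BUB1B, a part of the mitotic checkpoint complex, changed by -0.56 ± 0.09 and -0.68 ± 0.10 in MiaPaCa2. BUB1 was not called after GC correction (-0.28). MAD2L1 and BUB3 passed the test in neither line.

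Among the mitotic kinases and spindle genes, gemcitabine lowered PLK1, AURKA and TPX2 in MiaPaCa2 and PLK1 and AURKA in PANC1. PLK1, a kinase of centrosome maturation and kinetochore attachment, read 185 and 183 in the controls, 103.8 and 100.6 with gemcitabine, 234 and 200.5 with genistein and 82.2 and 99.4 with co-treatment in MiaPaCa2. For PANC1 the values were 214 and 172 in the controls, 83.9 and 79.1 with gemcitabine, 169 and 149 with genistein and 56.4 and 71.4 with co-treatment. No gemcitabine or co-treatment value reached a control value in either line. The change was -0.85 ± 0.10 in MiaPaCa2 (adjusted p = 7.94e-05) and -1.22 ± 0.15 in PANC1 (adjusted p = 0.00548), and genes of the opposite strand share 12.8% of its exon bases. AURKA, a kinase of the spindle poles, read 233 and 218 in the controls, 137 and 146 with gemcitabine, 223 and 237 with genistein and 155 and 139 with co-treatment in MiaPaCa2. In PANC1 it read 197 and 198 in the controls, 132 and 137 with gemcitabine, 209 and 218 with genistein and 122 and 114.5 with co-treatment. Control and genistein libraries lay together and the gemcitabine and co-treatment libraries lay below them in both lines. AURKA changed by -0.68 ± 0.09 (adjusted p = 0.000103) and -0.56 ± 0.08 (adjusted p = 0.0103). TPX2, which activates AURKA on the spindle, changed by -0.51 ± 0.07 in MiaPaCa2 (adjusted p = 0.000219) and by -0.15 ± 0.07 in PANC1 (adjusted p = 0.21). NEK2 and CDK1 were called in neither line.

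In the chromosomal passenger complex, which corrects faulty attachments, CDCA8 alone was called. CDCA8 (borealin) read 199 and 205 in the controls, 137 and 143 with gemcitabine, 212 and 207 with genistein and 133 and 145 with co-treatment in MiaPaCa2. The PANC1 libraries gave 217 and 184 in the controls, 126 and 128 with gemcitabine, 199 and 194 with genistein and 117 and 125 with co-treatment. The gemcitabine and co-treatment libraries lay below the control and genistein libraries in both lines. CDCA8 changed by -0.53 ± 0.08 in MiaPaCa2 (adjusted p = 0.000347) and -0.64 ± 0.10 in PANC1 (adjusted p = 0.0127). BIRC5 (survivin) read 233 and 240.3 in the controls, 245 and 282 with gemcitabine, 278 and 255 with genistein and 232 and 249 with co-treatment in MiaPaCa2. Its PANC1 values were 342 and 334 in the controls, 282 and 294 with gemcitabine, 342 and 339 with genistein and 266 and 273 with co-treatment. Its changes were 0.15 ± 0.09 and -0.23 ± 0.07, neither past the test. The scaffold INCENP read 76.8 and 87.0 in the controls, 86.7 and 74.0 with gemcitabine, 73.0 and 70.2 with genistein and 60.0 and 61.1 with co-treatment in MiaPaCa2. PANC1 had 104.1 and 91.9 in the controls, 82.0 and 77.6 with gemcitabine, 81.6 and 66.4 with genistein and 55.6 and 72.6 with co-treatment. In MiaPaCa2 the genistein libraries lay below the controls and the co-treatment libraries lay lowest, while the gemcitabine and control ranges overlapped. The gemcitabine changes were -0.02 ± 0.10 and -0.29 ± 0.15. The kinase of the complex, AURKB, changed by 0.08 ± 0.10 and 0.04 ± 0.13.

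**Figure D4:**
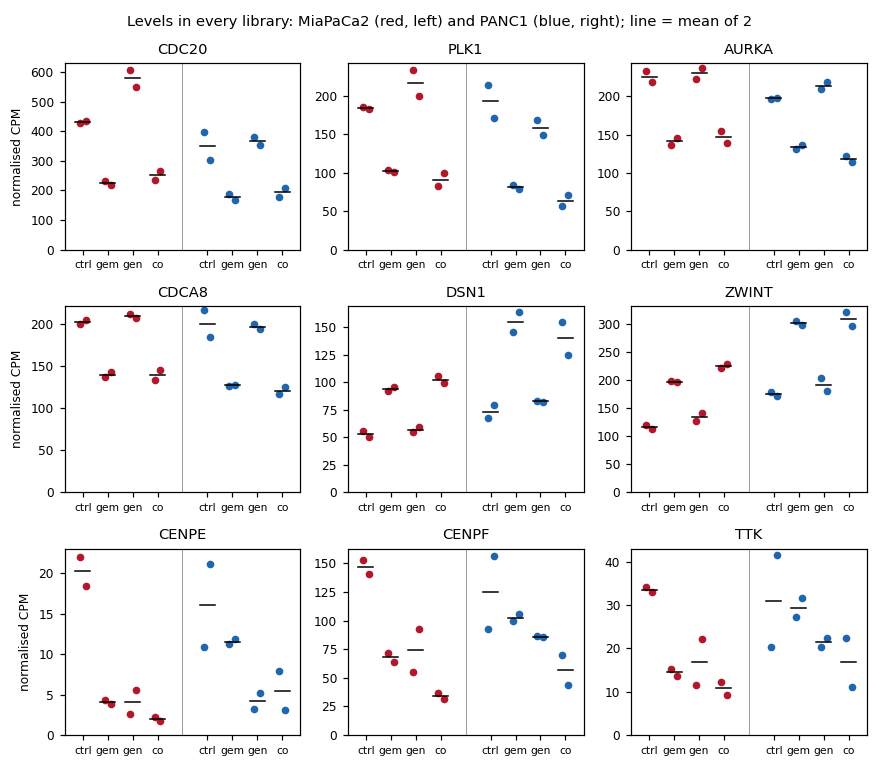
Normalised CPM of 9 genes in every library, red for MiaPaCa2 and blue for PANC1, in the order control, gemcitabine, genistein and co-treatment, with a line at the mean of 2 libraries and axes from 0. CDC20, PLK1, AURKA and CDCA8 are low and DSN1 and ZWINT high wherever gemcitabine was given, while CENPE, CENPF and TTK are also low with genistein in MiaPaCa2 and the PANC1 controls for these 3 genes lie far apart.

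In the outer kinetochore, gemcitabine raised DSN1, ZWINT and SPC24 and lowered NUF2 and NDC80 in MiaPaCa2, and raised DSN1, ZWINT, SKA1 and SKA3 in PANC1. DSN1, a subunit of the MIS12 complex that links inner and outer layers, read 56.0 and 50.2 in the controls, 91.7 and 95.6 with gemcitabine, 54.7 and 59.3 with genistein and 105.6 and 98.9 with co-treatment in MiaPaCa2. For PANC1 the values were 67.8 and 78.9 in the controls, 145 and 164 with gemcitabine, 83.2 and 82.1 with genistein and 155 and 125 with co-treatment. Every gemcitabine and co-treatment value exceeded every control and genistein value of its line. DSN1 changed by 0.82 ± 0.10 in MiaPaCa2 (adjusted p = 6.71e-05) and 1.07 ± 0.13 in PANC1 (adjusted p = 0.00599). ZWINT, which connects the outer layer to the corona and is given by library because it was called in both lines, read 119.7 and 112.5 in the controls, 198 and 197 with gemcitabine, 128 and 141 with genistein and 221 and 229 with co-treatment in MiaPaCa2. In PANC1 it read 179 and 172 in the controls, 306 and 297 with gemcitabine, 204 and 181 with genistein and 322 and 297 with co-treatment. The groups with gemcitabine again lay above the others in both lines, with changes of 0.76 ± 0.08 (adjusted p = 3.63e-05) and 0.78 ± 0.09 (adjusted p = 0.00412). NUF2, the partner of NDC80 in microtubule binding, read 60.1 and 51.5 in the controls, 29.2 and 29.3 with gemcitabine, 18.8 and 26.6 with genistein and 26.4 and 19.3 with co-treatment in MiaPaCa2. The PANC1 libraries gave 16.5 and 28.7 in the controls, 21.7 and 21.9 with gemcitabine, 12.5 and 10.8 with genistein and 17.3 and 10.8 with co-treatment. It fell with each drug in MiaPaCa2, with a change of -0.93 ± 0.16 for gemcitabine (-0.50 after GC correction), and its PANC1 gemcitabine values lay between the controls. SKA3, of the complex that tracks microtubule ends, read 42.3 and 45.1 in the controls, 47.2 and 50.6 with gemcitabine, 48.6 and 50.2 with genistein and 51.3 and 47.6 with co-treatment in MiaPaCa2. Its PANC1 values were 20.1 and 28.5 in the controls, 42.3 and 45.01 with gemcitabine, 30.3 and 28.7 with genistein and 40.5 and 32.5 with co-treatment. SKA3 rose by 0.85 ± 0.18 in PANC1 (adjusted p = 0.0317), beside 0.17 ± 0.10 in MiaPaCa2, and was not called when the first control library or either gemcitabine or genistein library was left out. SPC24 rose by 0.78 ± 0.10 in MiaPaCa2, beside 0.38 ± 0.12 in PANC1, and NDC80 fell by 0.63 ± 0.11 in MiaPaCa2, where it was not called after GC correction (-0.30 there). SPC25 and MIS12 were called in neither line.

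In the inner kinetochore, 2 of 12 genes fell and 1 rose in MiaPaCa2, and 1 of 12 fell in PANC1. CENPA, the centromeric histone, read 50.1 and 51.6 in the controls, 32.8 and 32.7 with gemcitabine, 57.0 and 58.3 with genistein and 34.2 and 33.6 with co-treatment in MiaPaCa2. PANC1 had 41.1 and 44.7 in the controls, 30.9 and 30.1 with gemcitabine, 48.9 and 43.4 with genistein and 29.4 and 26.8 with co-treatment. Gemcitabine and co-treatment values lay below all others in each line. CENPA changed by -0.63 ± 0.10 in MiaPaCa2 (adjusted p = 0.000374) and -0.49 ± 0.12 in PANC1 (adjusted p = 0.0494), and the PANC1 call was lost with edgeR and with any of the 8 libraries left out. CENPC, which binds CENPA nucleosomes, read 6.76 and 6.26 in the controls, 3.79 and 2.73 with gemcitabine, 2.09 and 3.68 with genistein and 1.93 and 2.69 with co-treatment in MiaPaCa2. For PANC1 the values were 3.71 and 6.40 in the controls, 4.51 and 6.02 with gemcitabine, 3.48 and 3.48 with genistein and 4.82 and 3.54 with co-treatment. CENPC changed by -1.01 ± 0.25 in MiaPaCa2 (adjusted p = 0.00757) but was not called, since its mean FPKM with gemcitabine was not above 1. CENPK, of the constitutive centromere network, read 19.9 and 19.2 in the controls, 13.9 and 12.5 with gemcitabine, 6.36 and 10.7 with genistein and 12.8 and 8.31 with co-treatment in MiaPaCa2. In PANC1 it read 11.3 and 22.4 in the controls, 24.8 and 31.9 with gemcitabine, 12.1 and 8.59 with genistein and 25.2 and 15.4 with co-treatment. CENPK fell by 0.57 ± 0.21 in MiaPaCa2 (adjusted p = 0.0448) and was not called after GC correction (-0.11) or with edgeR or DESeq2, and in PANC1 the value was 0.79 ± 0.35 (adjusted p = 0.2). CENPQ, of the same network, read 11.02 and 9.09 in the controls, 7.46 and 8.18 with gemcitabine, 2.50 and 5.66 with genistein and 6.96 and 3.999 with co-treatment in MiaPaCa2. The PANC1 libraries gave 2.79 and 5.43 in the controls, 7.41 and 9.32 with gemcitabine, 2.18 and 2.40 with genistein and 8.28 and 4.06 with co-treatment. Its values with gemcitabine were -0.37 ± 0.27 and 1.05 ± 0.38, neither past the test. CENPM rose by 0.59 ± 0.15 in MiaPaCa2 (adjusted p = 0.00667) and was not called after GC correction (0.35). CENPH, CENPI, CENPN, CENPO, CENPP, CENPT and CENPW were called in neither line, and genes of the opposite strand share 43.2% of the exon bases of CENPP, 31.6% of CENPO and 20.2% of CENPT.

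In the corona, the fibrous outermost layer of unattached kinetochores, gemcitabine lowered the motor CENPE and its binding partner CENPF in MiaPaCa2 and no gene was called in PANC1. CENPE read 22.05 and 18.5 in the controls, 4.37 and 3.88 with gemcitabine, 2.66 and 5.61 with genistein and 2.27 and 1.69 with co-treatment in MiaPaCa2. Its PANC1 values were 10.9 and 21.2 in the controls, 11.3 and 11.8 with gemcitabine, 3.24 and 5.19 with genistein and 7.89 and 3.13 with co-treatment. The MiaPaCa2 controls lay far above the 6 treated libraries, whereas the first PANC1 control lay just below both gemcitabine libraries. CENPE changed by -2.29 ± 0.24 in MiaPaCa2 (adjusted p = 2.79e-05), -1.75 after GC correction, beside -0.42 ± 0.40 in PANC1 (adjusted p = 0.55). Its exons are 34.8% GC, and its FPKM with gemcitabine was 0.537 and 2.26, farther apart than its CPM, so the call ended without the second library, which left the mean FPKM under 1. CENPF read 153 and 141 in the controls, 72.0 and 63.8 with gemcitabine, 55.6 and 93.0 with genistein and 36.6 and 31.5 with co-treatment in MiaPaCa2. PANC1 had 92.7 and 157 in the controls, 99.4 and 105.9 with gemcitabine, 86.3 and 85.7 with genistein and 70.3 and 43.8 with co-treatment. It changed by -1.12 ± 0.17 in MiaPaCa2 (adjusted p = 0.000358), -0.82 after GC correction. KNTC1 and ZWILCH belong to the complex that brings dynein and MAD1L1 to kinetochores. KNTC1 read 47.2 and 86.2 in the controls, 100.2 and 104.5 with gemcitabine, 69.6 and 70.2 with genistein and 97.0 and 58.9 with co-treatment in PANC1. Its MiaPaCa2 values were 55.9 and 48.0 in the controls, 48.9 and 46.3 with gemcitabine, 40.3 and 51.1 with genistein and 53.7 and 38.1 with co-treatment. The first PANC1 control was the lowest PANC1 library. ZWILCH read 52.8 and 92.5 in the controls, 100.4 and 115.5 with gemcitabine, 85.2 and 79.7 with genistein and 115.3 and 79.6 with co-treatment in PANC1. In MiaPaCa2 it read 53.5 and 46.0 in the controls, 44.4 and 41.9 with gemcitabine, 48.6 and 56.7 with genistein and 48.8 and 39.4 with co-treatment. The first PANC1 control was again the lowest of its line. The PANC1 changes with gemcitabine were 0.64 ± 0.29 for KNTC1 and 0.59 ± 0.26 for ZWILCH, which did not pass the test.

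Of the shugoshins, which protect centromeric cohesion, SGOL2 fell in MiaPaCa2. SGOL2 read 20.2 and 18.6 in the controls, 7.75 and 7.94 with gemcitabine, 4.03 and 8.20 with genistein and 5.03 and 4.44 with co-treatment in MiaPaCa2. For PANC1 the values were 19.1 and 39.8 in the controls, 22.3 and 26.2 with gemcitabine, 9.63 and 15.5 with genistein and 16.7 and 9.33 with co-treatment. The MiaPaCa2 controls lay above all treated libraries, and the 2 PANC1 controls were the lower and the upper end of a range that held the gemcitabine values. SGOL2 changed by -1.30 ± 0.21 in MiaPaCa2 (adjusted p = 0.000527), -0.88 after GC correction, beside -0.23 ± 0.38 in PANC1. SGOL1 read 11.6 and 9.24 in the controls, 9.96 and 10.00 with gemcitabine, 9.10 and 10.9 with genistein and 10.9 and 9.62 with co-treatment in MiaPaCa2. In PANC1 it read 13.9 and 19.3 in the controls, 26.5 and 29.5 with gemcitabine, 17.5 and 17.7 with genistein and 26.3 and 18.7 with co-treatment. Its changes were -0.06 ± 0.16 and 0.76 ± 0.21, the latter with adjusted p = 0.0627, and 15.8% of its exon bases are shared with an antisense gene.

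Genistein alone changed fewer of the 43 genes. In MiaPaCa2 it lowered 8 and raised 1, against 4.13% and 4.18% of all genes tested. The 8 were SGOL2 (-1.65 ± 0.23, adjusted p = 0.00142), NUF2 (-1.29 ± 0.17, adjusted p = 0.00107), CENPQ, CENPK, CENPF, TTK, NDC80 and BUB1B. CENPE changed by -2.28 ± 0.25 (adjusted p = 0.000549) but its mean FPKM was not above 1. CDC20 was the gene that rose, by 0.42 ± 0.08 (adjusted p = 0.00871), while gemcitabine lowered it. Of the 8 that fell, 6 were among the 14 genes of lowest GC content, 2 among the 15 of middle and 0 among the 14 of highest. Among the 14 genes of lowest GC content (34.0 to 40.4%) the median change was -0.77, among the 14 of highest (47.4 to 61.0%) it was 0.20, and after GC correction these medians were -0.61 and 0.09. After GC correction CENPQ, CENPK, CENPF, NUF2, SGOL2 and TTK were still called lower, and NDC80 (-0.38), BUB1B (-0.37) and CDC20 (0.32) were not called. CENPH was then called higher (0.44), and 10.7% of all genes were called in either direction against 8.31% before. The count of calls was 2 without the first control library, 3 without the second and 4 without the first genistein library, when 1.07%, 1.56% and 2.6% of all genes were called. NUF2, SGOL2, CENPK, CENPQ, CENPF and TTK were lower in that library than in the second.

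In PANC1 genistein called 0 of the 43 genes in limma-voom, with 6 at an unadjusted p under 0.05, 0 in edgeR and 2 in DESeq2. Of all genes, limma-voom called 0.0591% higher and 0% lower, and DESeq2 called 4.37% in either direction. The lowest values were those of CENPE, SGOL2 and NUF2. CENPE had -1.90 ± 0.49 (adjusted p = 0.13), SGOL2 -1.21 ± 0.42 (adjusted p = 0.19) and NUF2 -0.94 ± 0.31 (adjusted p = 0.18). After GC correction CENPF, NUF2 and SGOL2 were called lower, when 7.17% of all genes were called in either direction. CDC20 had 0.09 ± 0.14 in PANC1. The test of the difference in genistein response between the lines called 0 of the 43, with 2 at an unadjusted p under 0.05 and 0 in edgeR and DESeq2, against 0.0336% of all genes in either direction.

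Co-treatment against control lowered 19 of the 43 genes and raised 6 in MiaPaCa2, against 20.2% and 20.3% of all genes tested. In PANC1 it lowered 10 and raised 4, against 6.9% and 10.2%. AURKA, BUB1, BUB1B, CDC20, CDCA8, CENPA, CENPF, INCENP and PLK1 fell in both lines, and DSN1, SPC24 and ZWINT rose in both. Of the checkpoint genes, 6 of 7 were called lower in MiaPaCa2 (all but BUB3) and 3 of 7 in PANC1 (BUB1, BUB1B and CDC20). PLK1 changed by -1.02 ± 0.11 in MiaPaCa2 (adjusted p = 8.12e-06) and -1.58 ± 0.16 in PANC1 (adjusted p = 0.00118). CENPF changed by -2.12 ± 0.19 (adjusted p = 2.39e-06) and -1.16 ± 0.29 (adjusted p = 0.0268). CENPE had -3.36 ± 0.31 in MiaPaCa2, with a mean FPKM under 1, and fell by 1.65 ± 0.45 in PANC1 (adjusted p = 0.0389). The median over the 43 genes was -0.35 in MiaPaCa2 and -0.05 in PANC1, and after GC correction -0.12 and -0.04. In MiaPaCa2 the calls among the 14 genes of lowest GC content went from 7 lower and 1 higher to 3 lower and 4 higher with the correction. Among the 15 of middle GC content, 5 lower and 2 higher became 3 lower and 4 higher. Among the 14 of highest, 7 lower and 3 higher became 7 lower and 2 higher. In PANC1 the split was 9 higher and 7 lower with library size alone, which moved the median of all genes to 0.17, and 10 higher and 15 lower after GC correction, when 28.9% of all genes were called against 17.1% before. MAD2L1 was called lower in MiaPaCa2 at -0.45 ± 0.13 and was 0.12 after GC correction.

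Adding genistein to gemcitabine changed 3 of the 43 genes in MiaPaCa2, where 4.05% and 1.83% of all genes were called higher and lower. CENPF fell by 0.9985 ± 0.20 (adjusted p = 0.0101), INCENP fell by 0.40 ± 0.11 (adjusted p = 0.0383) and CENPH, a centromere network subunit, rose by 0.57 ± 0.10 (adjusted p = 0.00705). These calls depended on both gemcitabine libraries, and a fit without either leaves 1 library in that group. The share of all genes called in such a fit is not given here. In PANC1 0 of the 43 were called in limma-voom, edgeR and DESeq2, with 5 at an unadjusted p under 0.05 in limma-voom, against 0.0118% higher and 0.00591% lower of all genes. After GC correction CENPE, CENPF, BUB1B, PLK1 and MAD1L1 were called lower, and of all genes 6.87% were then called in either direction. CENPE had -1.23 ± 0.47 there (adjusted p = 0.32) and PLK1 -0.36 ± 0.17 (adjusted p = 0.41).

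Adding gemcitabine to genistein lowered 11 of the 43 and raised 5 in MiaPaCa2, against 14.9% and 16.6% of all genes. In PANC1 it lowered 7 and raised 3, against 4.31% and 3.87%. CDC20, PLK1, AURKA, CDCA8, CENPA, BUB1 and TPX2 fell and DSN1, ZWINT and CENPM rose in both lines. PLK1 changed by -1.25 ± 0.11 (adjusted p = 4.19e-06) and -1.31 ± 0.17 (adjusted p = 0.00626), and CDC20 by -1.20 ± 0.08 (adjusted p = 1.23e-06) and -0.93 ± 0.16 (adjusted p = 0.0153). The PANC1 calls depended on both genistein libraries, and the share of all genes called without either is not given here. With library size alone the MiaPaCa2 split was 7 higher and 7 lower. After GC correction the MiaPaCa2 median over the 43 genes was 0.06, against -0.15 before. Among the 14 genes of lowest GC content, 1 lower and 1 higher became 1 lower and 4 higher. Among the 15 of middle GC content, 4 lower and 2 higher became 1 lower and 3 higher. Among the 14 of highest, 6 lower and 2 higher became 7 lower and 2 higher. The interaction of the drugs, whether their joint change departs from the sum of the single log2 changes, called 0 of the 43 in MiaPaCa2 (10 at an unadjusted p under 0.05, 0 in edgeR and DESeq2) and 0 in PANC1 (3, with 0 in edgeR and DESeq2). Of all genes, 0.0249% and 0% were called in either direction by adjusted p, and the share at an unadjusted p under 0.05 was not computed. In MiaPaCa2 the interaction values of 3 AT-rich genes were CENPE 1.21 ± 0.43, SGOL2 0.92 ± 0.35 and NUF2 0.91 ± 0.24, with adjusted p from 0.35 for NUF2 to 0.51 for SGOL2.

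The response to gemcitabine differed between the lines for 3 of the 43 genes, 2 more positive and 1 more negative in PANC1, by adjusted p alone in the model of all 16 libraries, against 6.21% and 9.06% of the 17863 genes tested. CENPE differed by 1.76 ± 0.52 (adjusted p = 0.0383), SKA1 by 0.49 ± 0.14 (adjusted p = 0.03) and BIRC5 by -0.48 ± 0.12 (adjusted p = 0.022). The 5 genes that fell and the 2 that rose in both lines differed by -0.47 (PLK1) to 0.16 (DSN1), with adjusted p from 0.15 to 0.9, so a difference between lines was not detectable for them. Across the 43 genes the difference followed GC content, with a Spearman coefficient of -0.85, and of -0.24 after GC correction. These points share the same 8 libraries and the GC trends of those libraries, and genes are not independent replicates. After GC correction CENPE differed by 1.04 (adjusted p = 0.0176), BIRC5 by -0.38 (adjusted p = 0.00847) and SKA1 by 0.29 (adjusted p = 0.0537). The calls were lost without either MiaPaCa2 control or without the second gemcitabine library of either line. The share of all genes passing in those fits is not given here. More of the 43 genes and more of all genes passed without the second PANC1 control or without either PANC1 co-treatment library.

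**Figure D5:**
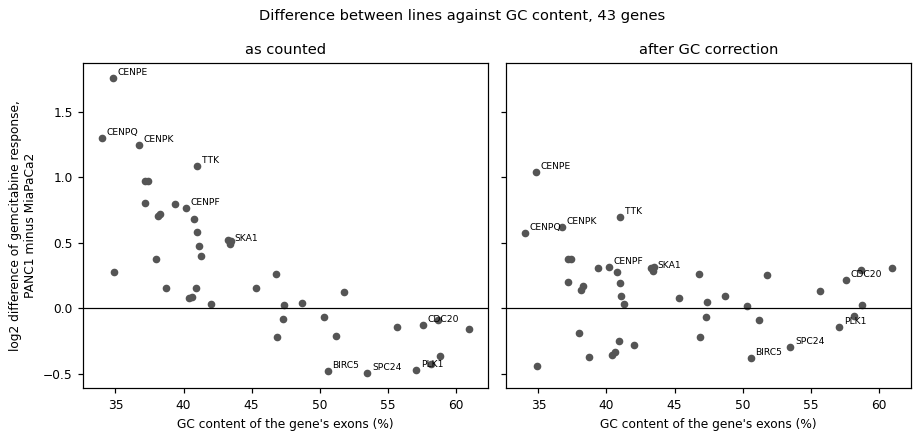
Log2 difference of the gemcitabine response, PANC1 minus MiaPaCa2, of each of the 43 genes against the GC content of its exons in percent, as counted (left) and after removal of each library's GC trend (right). The AT-rich genes CENPE, CENPQ, CENPK and TTK lie above 1 on the left and nearer to zero on the right, while PLK1 and CDC20, at 57.1% and 57.6% GC, lie nearer to zero in both panels.

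Pathways upstream and around the kinetochore were counted over lists of genes with known roles. Of 16 genes of the G1 to S transition, 7 rose with gemcitabine in MiaPaCa2 and 11 in PANC1 in limma-voom, with medians of 0.30 and 0.66 (0.32 and 0.76 after GC correction). These counts, like those of the next lists, stand beside 15% higher and 14.6% lower of all genes in MiaPaCa2 and 4.49% and 3.03% in PANC1. The licensing factor CDT1 (1.30 ± 0.17, adjusted p = 0.000122) and the transcription factor E2F1 (1.0034 ± 0.10, adjusted p = 1.79e-05) led in MiaPaCa2, and the cyclin CCNE2 (2.09 ± 0.37, adjusted p = 0.0173) and the licensing factor CDC6 (1.36 ± 0.09, adjusted p = 0.000696) in PANC1. Of 25 mitotic cyclins, CDC25 phosphatases and anaphase-promoting complex genes, 6 fell and 1 rose in MiaPaCa2 and 4 fell and 1 rose in PANC1, with 1 lower in MiaPaCa2 after GC correction. CCNB1, the cyclin partner of CDK1, changed by -0.82 ± 0.08 (adjusted p = 1.36e-05) and -0.89 ± 0.09 (adjusted p = 0.00283). UBE2S rose by 1.09 ± 0.32 in MiaPaCa2 (adjusted p = 0.0175) and FBXO5, an inhibitor of the complex, by 1.05 ± 0.26 in PANC1 (adjusted p = 0.0471). Of 20 other kinetochore and centromere genes, 5 fell and 1 rose in MiaPaCa2 and 1 rose in PANC1. CASC5, the scaffold of the checkpoint at kinetochores, changed by -1.06 ± 0.24 in MiaPaCa2 (adjusted p = 0.00403), and CENPU rose by 1.38 ± 0.26 in PANC1 (adjusted p = 0.0203), beside 0.78 ± 0.34 for ITGB3BP. Of 13 genes of G2 to M transcription, 4 fell in MiaPaCa2, among them RBL1 (-0.84 ± 0.13, adjusted p = 0.000391) and LIN9 (-0.81 ± 0.20, adjusted p = 0.00821). In PANC1 2 rose, MYBL2 (0.78 ± 0.15, adjusted p = 0.0205) and LIN54 (1.22 ± 0.28, adjusted p = 0.0399).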

How the data were processed

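Poly-A RNA of 16 libraries was sequenced as single reads. The authors mapped the reads to GRCh37 with TopHat 2.0.4, removed reads with multiple alignments with Picard 1.29 and deposited whole-number counts per gene from HTSeq 0.6.1. The authors also deposited FPKM from Cufflinks 2.1.1, scaled to transcript length and depth. The annotation release and strand setting of the counting are not given in the sources used here, so reads of overlapping genes cannot be told apart. Exon overlaps are those of GENCODE v44 mapped to GRCh37, which may not be the annotation used for counting. Isoform FPKM was not used.

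The main test was limma-voom, run under R 4.3.3 with limma 3.58.1, after TMM scaling and filterByExpr (edgeR 4.0.16), with a mean per group, in 1 model per line or of all 16 libraries for differences between lines. Rows of 128 identifiers repeated in the FPKM table were summed. The members, lists and tests were chosen with earlier results of these data known. Every member was named, and values of every library were given in each role for the 2 members with the largest absolute gemcitabine change in MiaPaCa2 and the 2 in PANC1, while ZWINT was added after its values were seen. Alternatives were edgeR's quasi-likelihood test, DESeq2 1.42.0, its size factors, library size alone, no low-count filter, limma-trend on log2(FPKM + 1), adjusted p alone, a replicate block, a GC correction (loess of log2 CPM on exon GC content from GENCODE v44 mapped to GRCh37, span 0.3) and each library left out. Values of 2 genes of the lists are not reported here. The procedure was tested on simulated data. Libraries of 12943482 to 31991860 reads set the precision of low genes, and intervals between replicates rest on n = 2.

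Deviations of same-numbered libraries correlated across genes from -0.57 to 0.33, and from -0.22 to 0.06 after GC correction, so the numbers were not taken as pairs.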

Additional observations from a re-analysis of the deposited data

Results flagged for a closer look

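Members whose gemcitabine response differed between the lines in the model of all 16 libraries were CENPE, with a difference (PANC1 minus MiaPaCa2) of 1.76 on the log2 scale, SKA1 with 0.49 and BIRC5 with -0.48. CENPE fell in MiaPaCa2 and had -0.42 in PANC1, SKA1 had 0.22 and 0.81, and BIRC5 had 0.15 and -0.23. In the fit after GC correction CENPE and BIRC5 still passed and SKA1 had an adjusted p of 0.0537. Of all 17863 genes tested, 6.21% passed as more positive and 9.06% as more negative in PANC1. With each library left out in turn, the number of members that passed ran from 0 to 23.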

How the results depend on the processing

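Values are numbers of the 43 genes called unless stated, and the cause of each change was not tested. With the GC correction the count was 20 for gemcitabine in PANC1 (9 otherwise), 25 for co-treatment against control, 16 for co-treatment against genistein, 5 for co-treatment against gemcitabine and 3 for genistein in that line, 1 for the interaction in MiaPaCa2 and 6 for the difference in gemcitabine response. The shares of all genes called moved too, to 17.9% (7.52% otherwise), 28.9% (17.1%), 20.8% (8.18%), 6.87% (0.0177%), 7.17% (0.0591%), 0.585% (0.0249%) and 25.9% (15.3%). The GC correction with replicate block gave 17, 25, 16, 4 and 2 for the same PANC1 comparisons and 6 for the difference in response, with 16.3%, 27.3%, 19.5%, 4.19%, 4.36% and 24.4% of all genes. In MiaPaCa2 the median change of the 43 genes with gemcitabine went from -0.17 to 0.0402 with the GC correction and 0.0397 with the block as well, and MAD2L1 with co-treatment from -0.45 to 0.124 and 0.126. The replicate block alone gave 7 for gemcitabine, 6 for co-treatment against genistein and 9 for co-treatment against control in PANC1, with 2.61% and 2.95% of all genes and 1950 of the 16909 in the last. Same-numbered libraries correlated across all genes from -0.57 to 0.33 (-0.22 to 0.06 after GC correction), and the labels give them only a shared number. Across the 43 genes, without the correction, the coefficients in PANC1 ran from -0.94 (control with co-treatment) to 0.77 (control with gemcitabine). In MiaPaCa2 they ran from -0.62 to 0.59. Crossing the numbers in co-treatment, chosen after seeing the data, gave 18, 4, 3 and 24 in PANC1 for gemcitabine, genistein, co-treatment against gemcitabine and co-treatment against control, 19 for the gemcitabine and 1 for the genistein response difference, with 17.4%, 11.8%, 4.36%, 26.1%, 28.3% and 3.54% of all genes. DESeq2 gave 2 for genistein in PANC1 and 9 for the gemcitabine response difference, with 4.37% and 18.4% of all genes, and no low-count filter gave 1 for the latter with 6.59%. On log2(FPKM + 1) the count was 3 for genistein and 0 for co-treatment against gemcitabine in MiaPaCa2, with 1.43% and 0.648% of all genes. The median with co-treatment against control in PANC1, -0.05, was 0.1063 with library size alone and 0.0753 on FPKM.

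With each library left out in turn, the ranges were 2 to 11 for genistein and 0 to 6 for co-treatment against gemcitabine in MiaPaCa2, 0 to 12 for gemcitabine, 0 to 11 for co-treatment against genistein and 9 to 16 for co-treatment against control in PANC1, 0 to 23 for the gemcitabine response difference, and -0.2164 to 0.123 for the median of co-treatment against control in PANC1. The 12 and the 23 were without the second PANC1 control, and the 16 without the first. For gemcitabine in MiaPaCa2 the range was 17 to 19. Of the log2 changes of called genes recomputed under the alternatives, 1234 kept direction and side of the threshold, 210 kept direction only and 2 changed sign. With 2 libraries a group, the PANC1 control replicates differed most (chi-square of 32.03 per degree of freedom). How far this spread limits the PANC1 comparisons, with control or between treatments, was not tested. Low counts limit CENPE, CENPC and CENPQ.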
